A study of Mus musculus with 2 samples.

Results

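The genes of the proteasome and of peptide transport into the endoplasmic reticulum were followed across the cell types of mouse pancreatic tumors by single-cell RNA-Seq (scRNA-Seq). Members were all genes of the count tables whose symbol begins with Psma, Psmb, Psmc, Psmd or Psme, together with Tap1, Tap2 and Tapbp, and pseudogenes were left out. This gave 48 of 32285 genes. The 2 libraries came from 1 orthotopic allograft tumor each, grown in the pancreas from KPC mouse pancreatic cancer cells with a short hairpin RNA. In the library labelled KPC-shV the hairpin was a control, and in the library labelled KPC-shZEB1 it was directed at Zeb1, the gene of an epithelial-mesenchymal transition factor. In the study both tumors grew in immunocompetent mice given gemcitabine, a nucleoside analog chemotherapy; the labels give neither the drug nor the strain or age of the mice. The hairpin was carried by the injected cancer cells alone, and the stroma and immune cells were those of the host.

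Each group was a single library, so replicate error could not be had and no test was made. Intervals are 95% and cover counting error only, and the effects of hairpin, mouse, dissociation and library cannot be told apart. After filtering, 11394 cells with 101167722 unique molecular identifiers (UMIs, counted molecules) were left in KPC-shV and 12113 cells with 119196328 UMIs in KPC-shZEB1. The libraries shared 46 cell barcodes, 36 of them among the cells kept. Levels are given as counts per 1e+06 UMIs of a cell class (CPM). Counts of the targeted gene did not bear out the labels. Zeb1 stood at 167 CPM (162–171) in tumor-like cells of the library labelled KPC-shV. In those labelled KPC-shZEB1 it stood at 189 CPM (184–194), a ratio of 1.13 (1.09–1.17). The Zeb1 ratio was 1.49 (1.42–1.56) in granulocyte-like and 1.45 (1.30–1.61) in monocyte-macrophage-like cells, host cells without the hairpin. The study shows a check of the Zeb1 knockdown in KPC cells and also antibody staining of Zeb1 protein in tumor tissues. Why the RNA counts here were not lower was not tested. Every direction below is therefore a direction between 2 libraries named by their labels. Cell classes were rebuilt by clustering and named from marker genes, and 13 named classes with at least 30 cells in each library were used. All markers fixed for tumor-like cells (8), granulocyte-like cells (8) and monocyte-macrophage-like cells (10) were found in at least 10% of their cells in both libraries. To name a single cluster, a marker also had to reach 3-fold the median over clusters. The tumor-like clusters led by Cntn5 and Prg4 and by Zfp804b and Ralyl each passed with 5 of the 8 markers. Neither had a tumor marker among its leading genes. A cluster of pancreatic acinar genes, led by Ctrb1 and Reg3b, also held granulocyte markers and was left unnamed. Tumor-like cells (1499 and 1437 cells in KPC-shV and KPC-shZEB1), granulocyte-like cells (6863 and 4329) and monocyte-macrophage-like cells (1130 and 1547) were the main classes compared.

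The proteasome is the barrel-shaped protease that degrades ubiquitin-tagged proteins in every cell. Its outer rings of alpha subunits gate the barrel, the inner rings of beta subunits hold the cutting sites, and a 19S cap of ATPases and non-ATPase subunits recognizes, unfolds and feeds in the substrate. In immune cells, and in other cells exposed to interferon-gamma, the constitutive catalytic subunits are exchanged for immune ones (Psmb9 for Psmb6, Psmb10 for Psmb7 and Psmb8 for Psmb5), which shifts the peptides made toward those that fit MHC class I, and the PA28 cap formed by Psme1 and Psme2 is induced with them. Tap1 and Tap2 form the pump that carries these peptides into the endoplasmic reticulum, where tapasin (Tapbp) helps load them onto MHC class I.

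By role, the members were 7 alpha ring genes, 4 noncatalytic beta ring genes, 3 constitutive catalytic genes (Psmb5, Psmb6 and Psmb7), 3 immune catalytic genes (Psmb8, Psmb9 and Psmb10), 6 ATPases and 11 non-ATPases of the 19S cap, 3 assembly chaperones of that cap (Psmd5, Psmd9 and Psmd10), the 2 subunits of the PA28 alpha-beta cap, 2 other caps (Psme3 and Psme4), 3 transport genes and 4 tissue-restricted or near-copy genes. The alpha ring, noncatalytic beta ring and constitutive catalytic genes with the ATPases and non-ATPases make up the 31 constitutive structural genes below, and the 3 immune catalytic genes with Psme1 and Psme2 make up the 5 immune subunits. Psmb9, Tap1, Psmb8 and Tap2 lie side by side in the MHC region at chr17:34181987-34216321 (GRCm38), a block of 34.3 kb. Psme1 and Psme2 lie close together, both within chr14:55578123-55591113. Psmb10 lies alone at chr8:105935735-105938444.

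Sequence before the gene starts was read from GRCm38 with RefSeq starts, to show what the immune genes and their constitutive counterparts carry. Windows were found for 40 of the 48 members, all 5 immune subunits among them, and searched on both strands over 250 bases upstream for 3 motifs. TTCNNNGAA, the interferon-gamma activated site, was in 7.02% of 32851 windows and in 1 member, Psmb8. The interferon-stimulated response element (2 GAAA repeats with 2 bases between them) was in 2.98% of windows and in 3 members (Psmb3, Psmd4 and Psmd9), none of them an immune subunit. TGANNNNGC, a loose pattern for the antioxidant response element, was in 35.2% of windows and in 16 members, including Psmb5, Psmb6, Psmb9, Psme2 and Tap1. Psmb9 and Tap1 point away from each other with 225 bases between their starts, so that their windows overlap and hold the same TGANNNNGC match on opposite strands. A match is a description of the letters and not a bound site. Capitals mark the motif. The gene coordinates above come from another annotation. By it the Psmb8 match lies within Psmb8 (chr17:34197721-34201454) and the shared match within Psmb9 (chr17:34181987-34187764). The lines show the Psmb8 site, 89 to 97 bases before the RefSeq start, at chr17:34198088-34198116 on the plus strand. After it comes the match shared by Tap1 and Psmb9 at chr17:34187372-34187400 on the plus strand.
Psmb8 site: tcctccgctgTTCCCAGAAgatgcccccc
Tap1 and Psmb9 site: ctgaggccccGCCCCATCAtcgcgcaagg
For the exchange pairs, the stretch before the start outside annotated exons is shown for both constitutive genes with a match and for the immune subunit Psmb10, which has a window without any of the 3 motifs. These are Psmb5 at chr14:54618023-54618245 (minus strand), Psmb6 at chr11:70525107-70525356 (plus strand) and Psmb10 at chr8:105938445-105938642 (minus strand), each ending nearest to the gene.
Psmb5: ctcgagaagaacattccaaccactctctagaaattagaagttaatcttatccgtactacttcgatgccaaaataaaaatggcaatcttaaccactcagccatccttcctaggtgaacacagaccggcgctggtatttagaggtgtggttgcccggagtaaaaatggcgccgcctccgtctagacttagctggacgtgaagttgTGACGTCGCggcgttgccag
Psmb6: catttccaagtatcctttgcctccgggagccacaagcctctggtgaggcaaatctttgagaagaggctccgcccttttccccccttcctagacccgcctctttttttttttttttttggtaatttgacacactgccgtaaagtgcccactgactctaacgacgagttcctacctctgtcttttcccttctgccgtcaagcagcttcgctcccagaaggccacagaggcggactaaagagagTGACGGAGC
Psmb10: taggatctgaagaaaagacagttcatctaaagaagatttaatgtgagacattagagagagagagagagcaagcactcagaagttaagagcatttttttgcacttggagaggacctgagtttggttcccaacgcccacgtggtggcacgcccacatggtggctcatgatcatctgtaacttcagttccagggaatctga
In Psmb5 and Psmb6 the capitals lie close to the start, and Psmb10 has none.

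The immune subunits and the constitutive genes had different orders over the cell classes. Summed over the 5 immune subunits, mature DC-like cells (Ccr7 and Fscn1, the migratory state of dendritic cells) were highest in both libraries, with 2639 CPM (2484–2801) in KPC-shV and 1940 CPM (1865–2017) in KPC-shZEB1. Conventional dendritic (cDC)-like cells came next, with 1333 and 1721 CPM. CD8 T-like cells followed with 1069 CPM (1012–1128) and 1071 CPM (1038–1106). Fibroblast-like cells were lowest, with 318 CPM (307–329) and 406 CPM (394–418). The highest class was thus 8.30-fold above the lowest in KPC-shV and 4.78-fold in KPC-shZEB1. Between these ends the intervals of several neighbors overlapped: in KPC-shV those of regulatory T-like (856 CPM), NK-like (855 CPM) and CD4 T-like cells (790 CPM), and in KPC-shZEB1 those of tumor-like (920 CPM) and monocyte-macrophage-like cells (918 CPM).

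The 31 constitutive structural genes spread less, 2.79-fold from highest to lowest class in KPC-shV and 2.45-fold in KPC-shZEB1. Their sum was highest in tumor-like cells, at 4276 CPM (4255–4298) and 4906 CPM (4883–4930), and lowest in granulocyte-like cells, at 1534 CPM (1518–1550) and 2005 CPM (1981–2029). CD8 T-like cells had 4050 and 4255 CPM. Within the T cells, a cycling CD8 T-like cluster led by Hist1h1b and Pclaf (24 and 58 cells) had 5367 and 5847 CPM of these genes and 1299 and 1254 CPM of the immune subunits. Within the tumor-like cells, the cluster led by Dbf4 and S100a14 had 5883 and 6638 CPM of the constitutive structural genes, above that CD8 T-like cluster in both libraries. Its cells had few UMIs, a median of 2248 beside 17200 in that CD8 T-like cluster. It also had the most transcripts of immune cells among the tumor-like clusters, as given below. Over the 7 classes with at least 100 cells in each library, 31 of 46 members with enough UMIs had their highest level in the same class in both libraries, beside 76.6% of 14085 genes. Tumor-like cells were that class for 18 members (21.9% of genes), among them Psmb5, Psmb7 and 4 of the alpha ring genes (Psma3, Psma5, Psma6 and Psma7). CD8 T-like cells were that class for 11 (8.01% of genes): Psmb8, Psmb9, Psme1 and Psme2 of the immune subunits, and Psma1, Psma2, Psmb1, Psmb3, Psmd13, Psme3 and Psmc3ip. Psme4, the PA200 cap, was highest in B-like cells (11.6% of genes) and Tapbp in monocyte-macrophage-like cells (6.99% of genes). The other 3 classes, CD4 T-like, fibroblast-like and granulocyte-like cells, were that class for 0 members, beside 4.99%, 14% and 9.05% of genes.

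**Figure D1:**
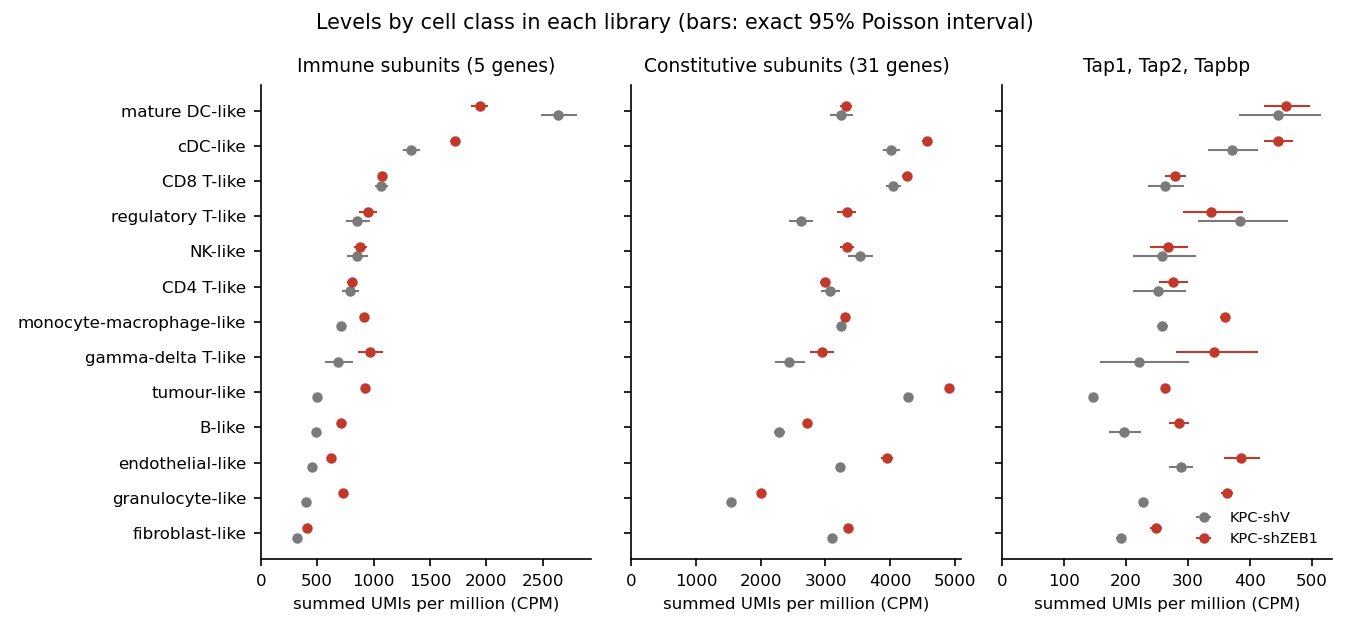
Summed level of the immune subunits, the constitutive structural genes and the transport genes in each named cell class, in CPM, with 1 point per library and bars for the 95% counting interval. Immune subunits run from 318 CPM in fibroblast-like cells to 2639 CPM in mature DC-like cells in KPC-shV, while the constitutive structural genes are highest in tumor-like cells and lowest in granulocyte-like cells in both libraries.

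In tumor-like cells the immune subunits and the transport genes were higher in the library labelled KPC-shZEB1 by more than the constitutive genes were. The 5 immune subunits together had 495 CPM (488–503) in KPC-shV and 920 CPM (910–930) in KPC-shZEB1, a ratio of 1.86 (1.82–1.89). The 3 constitutive catalytic genes had 369 CPM (363–376) and 451 CPM (443–458), a ratio of 1.22. The 31 constitutive structural genes had a ratio of 1.15 (1.14–1.16), and the 3 transport genes, with 147 CPM (143–151) and 263 CPM (258–269), one of 1.79 (1.73–1.85). Past 1.5-fold, 9 of the 46 members with at least 100 UMIs were higher in KPC-shZEB1, beside 8.68% of 13710 genes, and 0 were lower, beside 3.03% of genes. Relative to the median of all genes the counts were the same, 9 and 0, beside 8.18% and 3.3%. These 9 were the 5 immune subunits, the 3 transport genes and Psmc5, an ATPase of the 19S cap and the only 1 of the 31 constitutive structural genes among them. Zeb1 itself was not lower in that library, as given above.

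Among the immune catalytic genes, Psmb8 (the chymotrypsin-like site) had 138 CPM (134–142) in the tumor-like cells of KPC-shV and 279 CPM (274–285) in those of KPC-shZEB1, a ratio of 2.02 (1.95–2.09). Psmb9 (the caspase-like position) had 58.1 CPM (55.6–60.7) and 110 CPM (106–113), a ratio of 1.89 (1.79–1.99). Psmb10 (the trypsin-like site) had 82.8 CPM (79.8–85.9) and 152 CPM (148–156), a ratio of 1.83 (1.75–1.92). Of the PA28 pair, Psme1 differed more than Psme2. Psme1 had 116 CPM (113–120) and 226 CPM (221–231), a ratio of 1.94 (1.87–2.01), and Psme2 had 99.8 CPM (96.5–103) and 154 CPM (150–158), a ratio of 1.54 (1.48–1.61). Psme2 has a near-copy, Psme2b, so that the split of reads between them is uncertain. Psme2b itself had 2.07 and 2.36 CPM in these cells. In the transport group Tap2, with 15.8 CPM (14.5–17.2) and 32.0 CPM (30.1–34.0), had a ratio of 2.03 (1.83–2.25), with an interval that spans that of Psmb8. Tap1 went from 56.2 to 94.2 CPM, a ratio of 1.68 (1.58–1.77), and Tapbp from 74.9 to 137 CPM, a ratio of 1.83 (1.74–1.92); Tapbp overlaps Zbtb22 on the same strand, and reads of the overlap cannot be assigned.

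The constitutive counterparts were closer to 1. Psmb5 had 141 and 157 CPM, a ratio of 1.11 (1.07–1.16), and Psmb7 had 103 and 120 CPM, a ratio of 1.16 (1.11–1.21). Psmb6 had 125 and 174 CPM, a ratio of 1.39 (1.34–1.45), and so stood apart from both. The ratios of the 31 constitutive structural genes had a median of 0.23 on the log2 scale and ran from −0.16 to 0.74, beside a median of 0.03 over all genes tested, and 28 of them were above 1. By role, the 19S ATPases had a summed ratio of 1.31 (1.28–1.34), with Psmc5 at 52.7 and 87.7 CPM (1.67, 1.57–1.77) and Psmc4 at 57.4 and 80.8 CPM (1.41). Their non-ATPase partners, some of which bind ubiquitin chains or remove them, had one of 1.06 (1.04–1.07). Psmd14, the deubiquitinase of the cap, was at 169 and 151 CPM (0.89, 0.86–0.93). The alpha ring and the noncatalytic beta ring genes each had a summed ratio of 1.15, and the assembly chaperones one of 1.04 (0.99–1.10), with Psmd5 at 0.91 (0.83–0.99). The other caps ran lower in KPC-shZEB1: Psme4, linked to chromatin and histone turnover, had 204 and 181 CPM (0.88, 0.86–0.92), and the nuclear cap Psme3 had 33.4 and 31.6 CPM (0.95, 0.87–1.03).

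**Figure D2:**
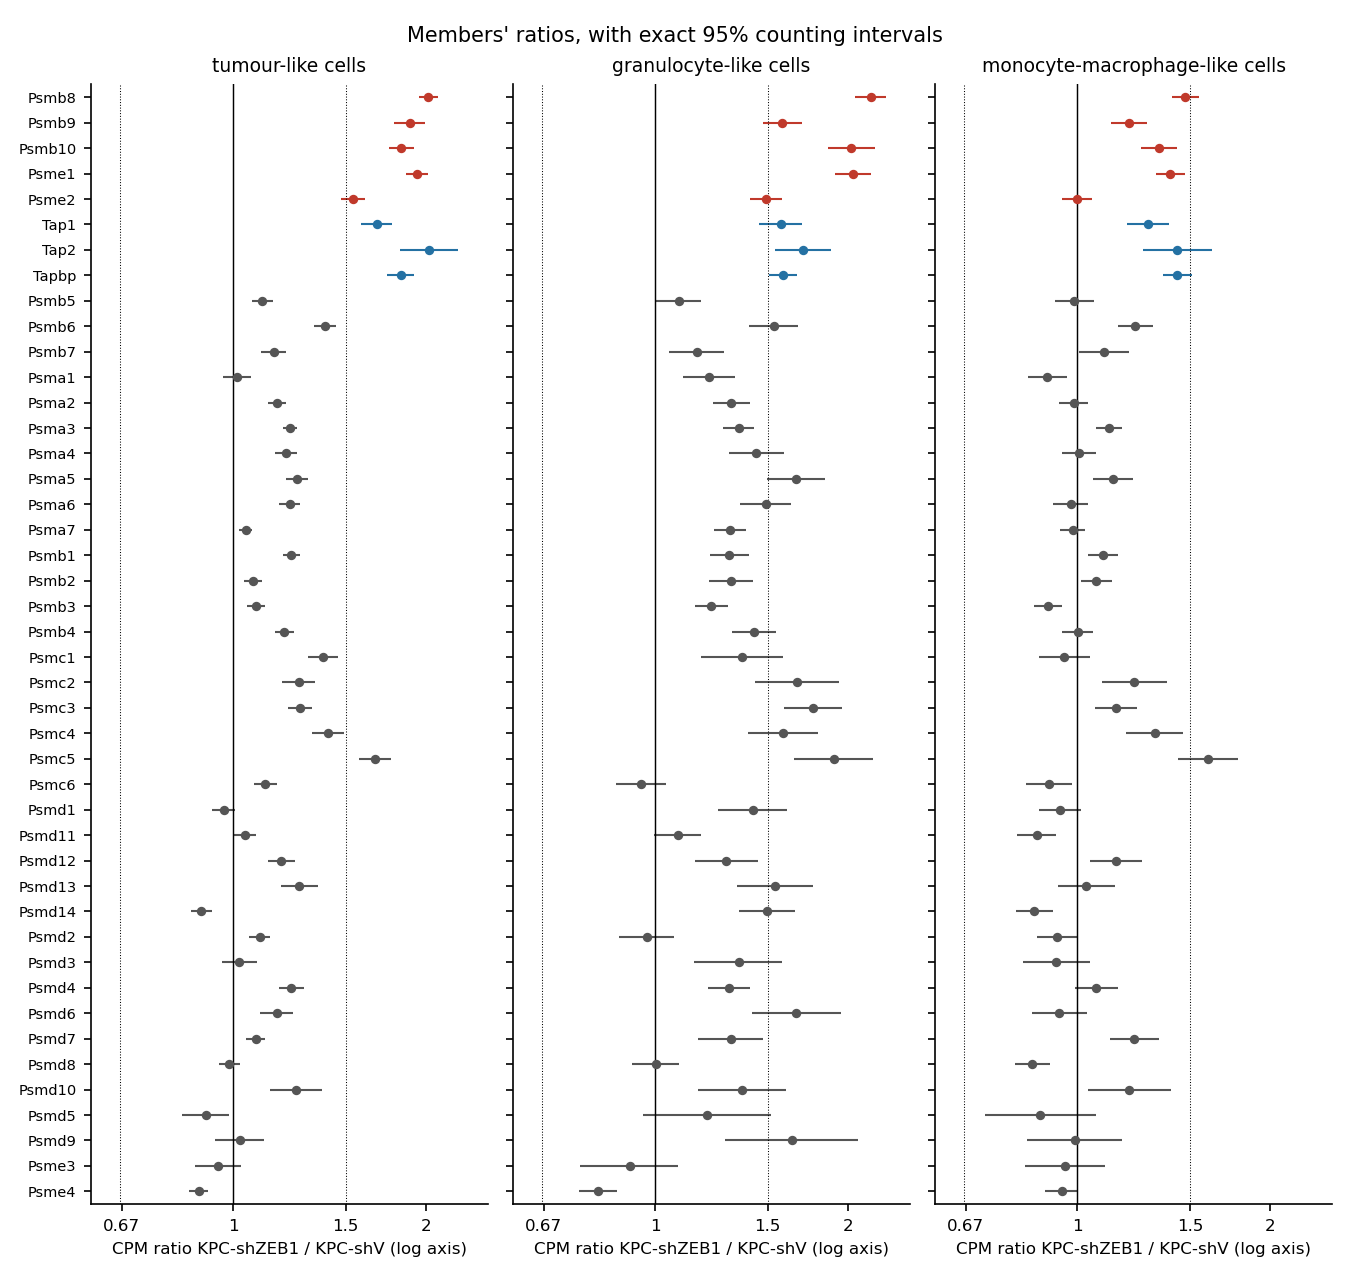
Ratio of KPC-shZEB1 to KPC-shV CPM for each member with at least 100 UMIs in tumor-like, granulocyte-like and monocyte-macrophage-like cells (without the 4 tissue-restricted or near-copy genes), on a log axis, with 95% counting intervals. Immune subunits are red, transport genes blue and all others grey, and dotted lines mark 1.5-fold. In tumor-like cells the 5 immune subunits, the 3 transport genes and Psmc5 lie past 1.5-fold and no member lies past it on the lower side.

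Within the exchange pairs, the immune gene took a larger share of the UMIs in the tumor-like cells of KPC-shZEB1. Tags at the 3′ end count a molecule once whatever its length, but capture can differ between genes, so only the shift between libraries is compared. The Psmb8 share of Psmb8 and Psmb5 was 49.5% in KPC-shV and 64.0% in KPC-shZEB1, an odds ratio of 1.82 (1.72–1.91). For Psmb10 and Psmb7 the share was 44.5% and 55.9%, an odds ratio of 1.58 (1.48–1.69). For Psmb9 and Psmb6 it was 31.8% and 38.7%, an odds ratio of 1.35 (1.27–1.45). Over the 3 pairs the immune share was 43.1% (42.4–43.7) and 54.5% (54.0–55.1), an odds ratio of 1.59 (1.53–1.64). The Psmb9 share shifted least, and Psmb6 was the constitutive catalytic gene with the largest ratio.

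A larger shift for Psmb8 than for Psmb9 was also measured in granulocyte-like, monocyte-macrophage-like and fibroblast-like cells. In granulocyte-like cells the Psmb8 share was 59.4% and 74.5% (odds ratio 1.99, 1.81–2.20) and the Psmb9 share 60.1% and 60.8% (1.03, 0.92–1.16). In monocyte-macrophage-like cells the Psmb8 share was 63.7% and 72.3% (1.49, 1.37–1.62) and the Psmb9 share 47.8% and 47.2% (0.98, 0.89–1.07). Fibroblast-like cells had a Psmb8 share of 44.3% and 55.1% (1.54, 1.36–1.74) and a Psmb9 share of 26.0% and 25.0% (0.95, 0.81–1.11). Mature DC-like cells had the highest Psmb8 share, 86.6% and 86.2% (0.96, 0.65–1.43), and there the Psmb10 share was lower in KPC-shZEB1, 79.7% and 62.7% (0.43, 0.26–0.71). In CD8 T-like cells the share over the 3 pairs was 64.4% and 60.7% (0.85, 0.74–0.98).

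**Figure D3:**
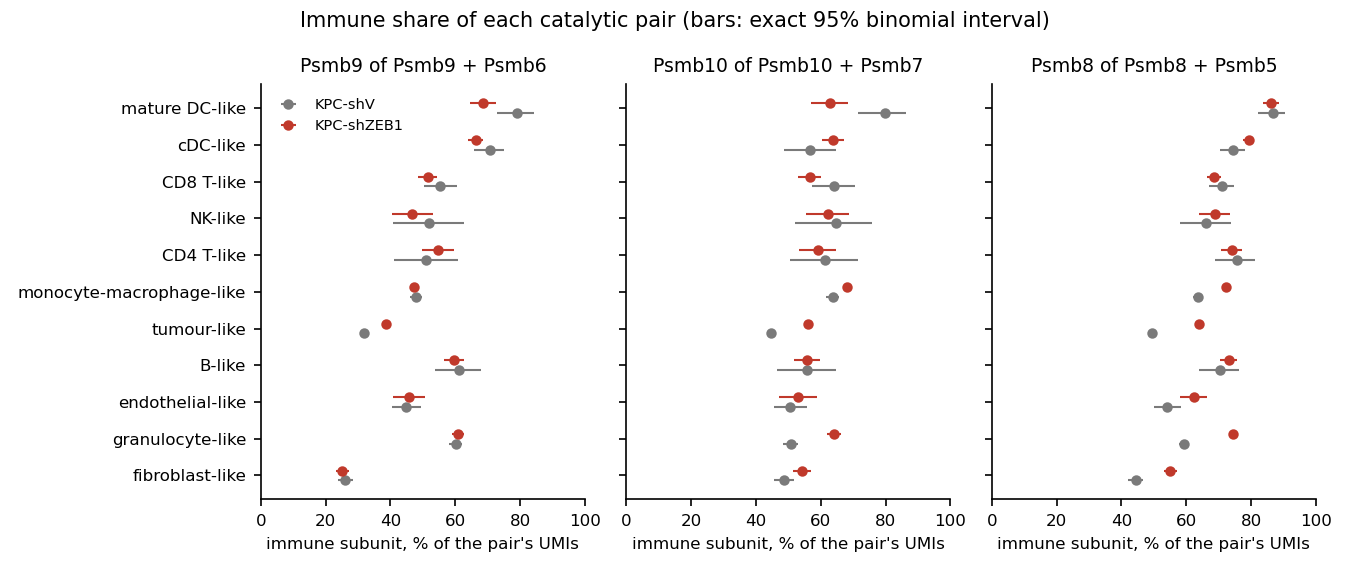
Share of the immune gene in the UMIs of each exchange pair, in percent, by cell class (without gamma-delta and regulatory T-like cells) and library, with exact 95% binomial intervals. In tumor-like cells the Psmb8 share is 49.5% in KPC-shV and 64.0% in KPC-shZEB1, while the Psmb9 share differs little between the libraries in granulocyte-like, monocyte-macrophage-like and fibroblast-like cells.

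The tumor-like cells held 4 clusters, and the immune subunits were higher in KPC-shZEB1 in each. The cluster led by Cntn5 and Prg4 (761 and 442 cells) had 462 and 686 CPM, a ratio of 1.49 (1.44–1.53). The cluster led by Epcam and Lama3 (403 and 441 cells) had 509 and 800 CPM, a ratio of 1.57 (1.52–1.62). A cluster of few UMIs led by Dbf4 and S100a14 (326 and 326 cells) had the highest level in KPC-shV, 961 CPM, and 1188 CPM in KPC-shZEB1, a ratio of 1.24 (1.15–1.33). In that cluster the immune subunit ratio was not above that of the constitutive catalytic genes. Those genes had 515 and 659 CPM, a ratio of 1.28 (1.15–1.42). The transport genes there had 187 and 208 CPM, a ratio of 1.11 (0.93–1.32), and Tap2 22.5 and 16.1 CPM (0.71, 0.39–1.29). A cluster led by Zfp804b and Ralyl came to 96.2% from the library labelled KPC-shZEB1 (9 and 228 cells) and had 571 and 1504 CPM, a ratio of 2.63 (2.26–3.09). Without that cluster the ratio of the 5 immune subunits over the class was 1.54, that of the constitutive catalytic genes 1.15, and 8 members lay past 1.5-fold, beside 7.94% of genes. Psme2 was the member lost, at 1.23 (1.17–1.29). Psmb8 was then at 1.70, Tap2 at 1.79 and Psmc5 at 1.61, and Psmb5 at 1.02 (0.98–1.07).

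Transcripts of immune cells were also counted in tumor-like cells. All 12 immune genes checked were detected, and 8 of them were higher in the library labelled KPC-shZEB1, Cd3e among them with 1.67 and 3.76 CPM. Lyz2 was at 299 and 534 CPM (1.78), and Ptprc (1.60) and Cd79a (2.80) were also higher. S100a8 (0.40), S100a9 (0.43), Csf3r (0.67) and Srgn (0.88) were lower. Their sum was 1889 CPM in KPC-shV and 1698 CPM in KPC-shZEB1, a ratio of 0.899, or 1.29 without the granulocyte genes S100a8 and S100a9. By cluster the sum ran from 1302 to 5781 CPM in KPC-shV and from 1584 to 3994 CPM in KPC-shZEB1, highest in the Dbf4 cluster of few UMIs, which also had the highest immune subunit level in KPC-shV. None of the 12 was at 0, and their part in the result was not tested. Granulocyte markers put the share of background RNA in tumor-like cells at 17.4% in KPC-shV and 20.4% in KPC-shZEB1. With it subtracted the ratio of the immune subunits in tumor-like cells was 1.92. That share rests on granulocyte markers alone, and RNA from other immune cells was not estimated separately.

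**Figure D4:**
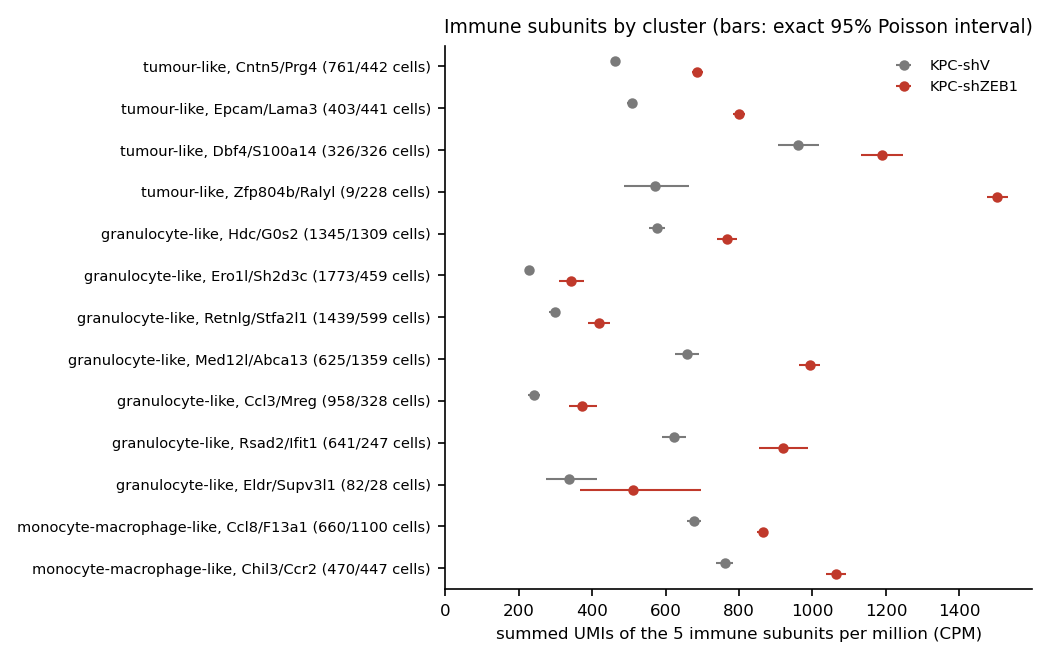
Summed level of the 5 immune subunits, in CPM, in each cluster of the tumor-like, granulocyte-like and monocyte-macrophage-like cells, with 1 point per library and 95% counting intervals. KPC-shZEB1 is higher in every cluster drawn, with the widest gap in the Zfp804b and Ralyl tumor cluster (571 and 1504 CPM).

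Granulocyte-like cells, the most numerous class, had the immune subunits at 398 CPM (390–407) in KPC-shV and 731 CPM (717–746) in KPC-shZEB1, a ratio of 1.84 (1.78–1.89). Tumor markers put the share of background RNA in these cells at 16.6% in KPC-shV and 24.0% in KPC-shZEB1, and with it subtracted the ratio was 1.85. Psmb8 went from 98.8 to 214 CPM (2.17, 2.05–2.30), Psme1 from 74.1 to 151 CPM (2.04, 1.91–2.17) and Psmb10 from 44.8 to 90.7 CPM (2.03, 1.86–2.20). Psmb9 (1.58), Psme2 (1.49), Tap1 (1.57), Tap2 (1.70) and Tapbp (1.58) differed less. Past 1.5-fold, 16 of 45 members were higher, beside 19.6% of 10628 genes, and 0 were lower, beside 2.47%. The median of all genes in this class was itself shifted, by 0.25 on the log2 scale or 1.19-fold. Relative to that median 4 members lay past 1.5-fold higher (Psmb8, Psmb10, Psme1 and Psmc5), beside 8.21% of genes, and 0 lower, beside 7.27%. On that scale the immune subunits had a ratio of 1.54, the transport genes 1.34, the constitutive structural genes 1.10 and the constitutive catalytic genes 1.04.

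The immune subunits differed between granulocyte clusters as well as between libraries. In KPC-shV they ran from 228 CPM in the cluster led by Ero1l and Sh2d3c to 657 CPM in that led by Med12l and Abca13, with 622 CPM in the cluster led by the interferon-induced genes Rsad2 and Ifit1. In KPC-shZEB1 the same 3 clusters had 343, 992 and 918 CPM. In the 7 granulocyte clusters the ratio between libraries was 1.33 to 1.55, in each below the ratio over the class. The clusters made up different parts of the 2 libraries: the Med12l cluster had 625 and 1359 cells and the Ero1l cluster 1773 and 459. With each cluster at the same weight in both libraries, the ratio of the immune subunits was 1.44, that of Psmb8 1.72, of Psme2 1.13 and of Psmb5 0.92, so that Psmb5 changed direction.

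In monocyte-macrophage-like cells the immune subunits had 712 CPM (698–727) and 918 CPM (905–932), a ratio of 1.29 (1.26–1.32), and the constitutive structural genes 3237 and 3301 CPM, a ratio of 1.02 (1.01–1.03). Psmb8 differed most among the immune subunits, with 178 and 263 CPM (1.48, 1.40–1.55). Psme1 followed with 161 and 224 CPM (1.40) and Psmb10 with 104 and 140 CPM (1.34). Psme2 had the same level in both, 163 and 162 CPM, a ratio of 1.00 (0.95–1.06). The transport genes had a summed ratio of 1.39 (1.33–1.45). Past 1.5-fold lay 1 of 45 members, beside 5.25% of 10759 genes, and 0 were lower, beside 1.61%. Relative to the median of all genes it was also 1 and 0, beside 4.86% and 1.84%. That member was again Psmc5, with 36.3 and 58.1 CPM (1.60, 1.44–1.78). The smallest ratios were those of the 19S subunits Psmd8 (0.85), Psmd14 (0.86) and Psmd11 (0.86). In a macrophage-related cluster led by Mmp12 and Dcstamp (488 and 977 cells), left unnamed, the immune subunits had 850 and 1030 CPM, a ratio of 1.21 (1.18–1.24), and 0 of 44 members lay past 1.5-fold higher or lower, beside 5.47% and 0.978% of genes.

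Over the 13 named classes the interval of the immune subunit ratio lay above 1 in 8, below 1 in 1 and held 1 in 4. The 4 were CD4 T-like (790 and 806 CPM), CD8 T-like (1.00, 0.94–1.07), NK-like (855 and 881 CPM) and regulatory T-like cells (1.11, 0.95–1.29). Whether these differ from the tumor-like cells was not tested. Past 1.5-fold higher lay 0 of 38 members in CD4 T-like cells (6.85% of genes), 1 of 44 in CD8 T-like cells (Psmc1; 6.07%), 1 of 31 in NK-like cells (Psma5; 5.96%) and 1 of 15 in regulatory T-like cells (Psmb4; 5.2%). On the lower side there were 0 in each, beside 3.31%, 1.98%, 2.9% and 4.93% of genes. Interleukin-17-type gamma-delta T-like cells, with 33 and 57 cells, had 682 and 970 CPM, a ratio of 1.42, with 1 of 3 members past 1.5-fold higher (Psme1; 8.19% of genes) and 0 lower (6.89%). B-like cells had 491 CPM (451–533) and 707 CPM (683–732), a ratio of 1.44, and 6 of 43 members past 1.5-fold (Psma7, Psmc4, Psmd3, Psmd4, Psme1 and Tapbp), beside 7.12% of genes, and 0 lower, beside 1.45%. In endothelial-like cells the ratio was 1.37, and Psmb8 had 107 and 189 CPM (1.78), and 5 of 41 members were past 1.5-fold higher (Psmb8, Psmc2, Psmc4, Psmc5 and Psmd13), beside 5.64% of genes, and 0 lower, beside 4.53%. In fibroblast-like cells the ratio was 1.28, and Psmb8, with 76.8 and 125 CPM (1.63), was the only 1 of 44 members past 1.5-fold higher, beside 4.54% of genes, with 0 lower, beside 3.71%. In cDC-like cells it was 1.29, with Psmb10 and Psmc6 past 1.5-fold of 41 members, beside 7.5% of genes, and 0 lower, beside 3.79%.

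Mature DC-like cells were the class in which the immune subunits were lower in KPC-shZEB1. It held 37 and 103 cells. Psme2 had 804 and 525 CPM (0.65, 0.57–0.75), Psmb9 401 and 267 CPM (0.67, 0.55–0.81) and Psmb10 238 and 142 CPM (0.60, 0.46–0.77). Psmb8, with 615 and 527 CPM (0.86, 0.74–0.99), and Psme1, with 581 and 479 CPM (0.82), were closer to 1. Psmb10 and Psme2 were the 2 of 33 members past 1.5-fold on the lower side, beside 6.18% of genes, and Psmc3 lay past it on the higher side, beside 8.1%. The constitutive structural genes were at 3246 and 3317 CPM and the transport genes at 445 and 458 CPM in this class.

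The share of cells with at least 1 UMI of an immune subunit was also counted. With each cell thinned to 1000 UMIs and no cell left out, it was 39.0% and 54.4% of tumor-like cells (91.6% and 95.1% unthinned, at median depths of 23780 and 23871 UMIs). Granulocyte-like cells had 28.6% and 45.0% (57.7% and 75.1% unthinned, at 3148 and 2907 UMIs). Fibroblast-like cells, the class with the lowest summed level, had 22.1% and 29.7%, and CD8 T-like cells 55.0% and 60.1%. Mature DC-like cells had 83.8% (68.0–93.8) and 85.4% (77.1–91.6), while their summed level was lower in KPC-shZEB1. NK-like cells had 60.0% (46.5–72.4) and 49.2% (41.8–56.6), and regulatory T-like cells 66.7% and 63.6%. The intervals of the libraries overlapped in these 3 classes, and no order is read from them. Every cell type uses these genes to some extent, and no class gave a level of free RNA alone. Of the tissue-restricted or near-copy members, the thymus subunit Psmb11 had 8 and 9 UMIs over all cells kept. On the same count the germ cell subunit Psma8 had 63 and 112 and Psme2b 384 and 413. Psmc3ip, a recombination factor that shares only the name, had 313 and 495.

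The wider pathway was described by lists of genes outside the members, counted past 1.5-fold beside the shares of all genes given above for each class. Of 13 assembly and associated factors 12 were found, among them Pomp, the chaperone of the 20S barrel. In tumor-like cells 0 of these lay past 1.5-fold. Sem1, a small 19S subunit, was lower in KPC-shZEB1 in the 3 main classes, with 416 and 295 CPM in tumor-like cells (0.71, 0.69–0.73), 438 and 313 CPM in granulocyte-like cells (0.71) and 543 and 351 CPM in monocyte-macrophage-like cells (0.65, 0.63–0.67), where it was the only factor past 1.5-fold. In granulocyte-like cells 3 of 12 factors were higher past 1.5-fold, beside 19.6% of genes: Ube3c (2.29), the proteasome inhibitor Psmf1 (1.95) and Psmg4 (1.63). Relative to the shifted median of that class, a scale added after the values were seen, 2 were higher (Ube3c 1.92 and Psmf1 1.63) and Sem1 was past 1.5-fold lower (0.60), while Psmg4 was at 1.37. The 4 genes that control proteasome transcription, Nfe2l1 (NRF1), Nfe2l2 (NRF2), Ddi2 and Ngly1, had 0 members past 1.5-fold in the 3 main classes, except that Ddi2 in granulocyte-like cells was at 0.67 and past 1.5-fold lower relative to the class median.

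Peptide loading genes past 1.5-fold in tumor-like cells were 2 of 9: the peptide trimmer Erap1, with 20.8 and 32.5 CPM (1.56, 1.42–1.72), and the peptide editor Tapbpl, with 4.39 and 11.1 CPM (2.53, 2.09–3.07). The MHC class I genes themselves differed less, with H2-K1 at 1365 and 1676 CPM (1.23), H2-D1 at 537 and 689 CPM (1.28) and B2m at 1452 and 1528 CPM (1.05). In granulocyte-like cells 3 of the 9 were past 1.5-fold (Erap1 1.71, Tapbpl 2.18 and Nlrc5 1.73), beside 19.6% of genes. Relative to the class median 1 was, Tapbpl at 1.83, and Erap1 and Nlrc5 were at 1.44 and 1.45. In monocyte-macrophage-like cells it was 1, Nlrc5, and relative to the class median 0. The transactivator Nlrc5 had ratios of 1.24, 1.73 and 1.51 in tumor-like, granulocyte-like and monocyte-macrophage-like cells. Among the interferon response genes, the interferon-induced GTPases were higher in KPC-shZEB1 in tumor-like cells: Gbp2, with 114 and 280 CPM (2.47, 2.38–2.56), Igtp (2.27), Irgm1 (2.21) and Gbp3 (2.08). Their ratios were 2.24, 2.07, 1.87 and 2.67 in granulocyte-like cells and 2.01, 1.68, 1.83 and 1.23 in monocyte-macrophage-like cells. Relative to the class median the granulocyte-like ratios were 1.88, 1.74, 1.57 and 2.24. Stat2 (0.92) and Irf9 (1.08) were near 1 in tumor-like cells. Irf1, a factor that acts on the Psmb9 and Tap1 promoter, had ratios of 1.41, 1.73 and 1.89 in the same 3 classes. In tumor-like cells the receptor genes Ifngr1 (1.14, 1.10–1.20) and Ifngr2 (1.15, 1.09–1.22) were a little higher in KPC-shZEB1. The kinase gene Jak2 (0.90, 0.87–0.93) was a little lower, and the interval of Jak1 (0.97, 0.95–1.00) held 1.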

How the data were processed

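Single cells of 2 tumors, 1 per group, were profiled with 10x Genomics 3′ chemistry. The deposited values are UMI counts per gene and cell barcode, made by the authors with Cell Ranger 7.0.1 on the mouse genome mm10; whether intronic reads were counted is not given in the sources used here. Barcodes were kept if they had 500 genes or more, a UMI total between 1000 and 60000 and no more than 15% of it mitochondrial. Doublets were scored per library against simulated pairs and removed above a score of 0.2 (319 and 334 cells). The remaining cells were clustered with scanpy 1.11.5 and leidenalg 0.10.2 (3000 variable genes, 30 components, resolution 1), T and NK cells were clustered again at resolution 1.5, and clusters were named from fixed markers. The doublet limit and the naming rule were adjusted after cluster markers were seen.

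UMIs were summed per class and library and divided by the class total (CPM). Ratios are KPC-shZEB1 over KPC-shV with exact conditional intervals, levels have exact Poisson intervals, and shares have Clopper-Pearson intervals (scipy 1.17.1). Genes needed at least 100 UMIs over both libraries for counts past 1.5-fold. On simulated counts for 13710 genes of tumor-like cells, intervals covered 95.3% of genes, every 2-fold change was called, and 0.215% of unchanged genes were called. The simulation held counting error only and no variation between cells, mice or libraries. These rates are therefore not those of the data. Named members were both sets of catalytic genes, the caps, transport and restricted genes, and the 3 largest and smallest ratios in each main class; other genes are named after their values were seen. Members, gene lists and the tests left out were chosen with earlier results of these data known. A gene of the interferon response list is not reported here, nor are counts over that list.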

Additional observations from a re-analysis of the deposited data

Results flagged for a closer look

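The ratio of the 5 immune subunits, KPC-shZEB1 over KPC-shV, was 0.735 in mature DC-like cells and above 1 in tumor-like (1.86), granulocyte-like (1.84) and monocyte-macrophage-like cells (1.29). The opposite direction drew attention to it. With 1 library per group the difference between these classes was not tested, and mature DC-like cells rest on 37 and 103 cells. All 5 subunits were below 1 in that class.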

How the results depend on the processing

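The results below kept their direction in every setting tried, and Psmb5 in granulocyte-like cells turned from 1.09 to 0.915 with clusters at equal weight. No paired analysis was possible because each group is 1 library. In tumor-like cells the immune subunit ratio of 1.86 became 1.72 with no upper UMI limit and 1.69 as a mean over cells. It was 1.92 with background RNA subtracted, its share set by granulocyte markers alone. The ratio was 1.54 without the cluster mostly of 1 library, 1.71 with cells thinned to 1000 UMIs and 1.82 relative to the median of all genes. Settings chosen after seeing the data gave 1.90 without the cluster of few UMIs and 1.64 with clusters at equal weight. The constitutive catalytic ratio of 1.22 became 1.17, 1.15 and 1.18 with no upper limit, without the cluster mostly of 1 library and thinned, and 1.19 at equal weight. The odds ratio of the immune share, 1.59, became 1.46 as a mean over cells, 1.42 without that cluster and 1.47 thinned. Past a looser fold limit, not stated here, lay 17 members, and past 2-fold 2. The shares of all genes at those limits are not given, so no result is read from these counts. In granulocyte-like cells the immune ratio of 1.84 became 1.54 relative to the median, 1.94 without the Rsad2 cluster and 1.44 at equal weight. In monocyte-macrophage-like cells 1.29 became 1.24 with no doublets removed, 1.20 at resolution 0.5, 1.24 with background subtracted and 1.40 thinned. Over the 7 larger classes, the highest over the lowest immune level was 3.36-fold in KPC-shV and 2.64-fold in KPC-shZEB1, or 3.06 and 2.34 as means over cells. The other 44 values moved by less than their counting interval or, for counts, stayed within 1.5 times. The limit on all of them is 1 library per group, which no depth removes, and the labels were not borne out by the RNA counts of Zeb1.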
